A study of Mus musculus with 24 samples.

Results

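The genes described here encode the nuclear subunits and several assembly factors of the mitochondrial respiratory chain and the ATP synthase in mouse liver. They were taken by symbol from the count table (Nduf, Sdh, Uqcr, Cox4 to Cox8 and Atp5 families, Cyc1 and Cycs), and a gene was kept when it had at least 50 counts in at least 12 of the 24 libraries. Of 23411 gene symbols, 94 matched the symbols and 85 were kept. These comprised 43 genes of complex I (7 core subunits, 28 accessory subunits and 8 assembly factors), 4 of complex II, 9 of complex III, Cycs, 12 of complex IV and 16 of complex V. The subunits that the mitochondrial genome encodes were not analysed here.

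The respiratory chain passes electrons from NADH, through complex I, and from succinate, through complex II, to ubiquinone, then through complex III and cytochrome c to complex IV, where oxygen is reduced. Complexes I, III and IV move protons across the inner membrane, and complex V uses the returning protons to make ATP. Complex II is also succinate dehydrogenase of the citric acid cycle and is the complex built without any mitochondrially encoded subunit. In hepatocytes the chain serves urea synthesis, gluconeogenesis and the oxidation of fatty acids.

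The genotypes were WT and α7HMZ, a homozygous exon swap that leaves only the P2 form of the transcription factor HNF4α. All mice were males of a mixed 129/Sv plus C57BL/6 background, aged 16 to 20 weeks. Mice fed ad libitum were taken at 10:30, 13:30 or, in the dark phase, 20:30, and mice fasted for 12 h at 10:30, giving 8 groups of 3 with both genotypes at each condition. The swap is in the germ line and so is not limited to hepatocytes, and gene-level counts do not separate the alternative first exons of Hnf4a, so they do not check the genotype labels.

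Library totals ranged from 8545959 to 28445590 counts. The labels place WT and α7HMZ fed at 10:30 and WT fasted on flow cell 375, and every other group on flow cell 377. Genotype differences at each fed time, 20:30 against 13:30 within a genotype, and fasting in WT therefore lie within a flow cell. The fasted genotype comparison, fasting in α7HMZ, genotype by fasting, and 10:30 against later times within a genotype cannot be told apart from the flow cell. The Rn45s row took 50.8% of the counts of α7HMZ 10:30 replicate 1 and at most 3.76% elsewhere. Summed hepatocyte markers, in CPM (counts scaled to a fixed library total), were lower in α7HMZ than in WT with no overlap in each condition: 110000 to 130000 against 142000 to 173000 at 10:30, 92800 to 104000 against 107000 to 124000 at 13:30, 112000 to 140000 against 150000 to 182000 at 20:30, and 93900 to 109000 against 149000 to 177000 when fasted. Single hepatocyte genes differed from this sum. At 13:30 the log2 fold change was -0.719 for Trf and -0.566 for Apob, which passed the test used below. It was -0.233 for Alb, -0.237 for Ttr, -0.0952 for Serpina1a, -0.0279 for Apoa1, -0.0282 for Cps1 and 0.124 for Fgb, none of which passed. Summed erythroid markers lay between 52.9 and 83.4 CPM in fed α7HMZ and 144 and 195 in fed WT, and between 41.9 and 48.9 against 75.6 and 85.5 when fasted. Alas2 was the only erythroid marker among the genes tested, with a log2 fold change of -1.594 at 13:30, so this sum follows a single gene. The part of these markers in the results below was not tested. Muscle markers, whose tissue has its own Cox isoforms, reached at most 0.518 CPM. In these bulk samples fewer cells of a type and less RNA per cell cannot be told apart.

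Values are given as CPM after TMM scaling (library sizes corrected for composition), and per kilobase of transcript where genes are compared with each other. Per kilobase, mean levels over the 24 libraries ran from 596 for Atp5b, the catalytic beta subunit of the ATP synthase, to 3.03 for Atp5s, a coupling factor. Atp5b, Ndufa4 (550), Atp5g3 (489), Cox4i1 (410) and Cox6a1 (396) were the highest. Within complex I the highest was Ndufb9 (293), an accessory subunit, and the lowest was the assembly factor Ndufaf5 (3.57). In complex II, Sdhb (196), Sdhd (173) and Sdha (165) lay above Sdhc (48.4). In complex III, Uqcrh (314) was the highest and Uqcrc2 (140) the lowest, and in complex IV Cox7a2l (102), a factor that joins complexes into supercomplexes, was the lowest. Cytochrome c (Cycs) had 54.7 CPM per kilobase, with 26.1% of its 75-base stretches shared with other annotated genes. Between its lowest and highest library a kept gene varied by up to 3.94-fold (Atp5s).

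For each tissue-dependent subunit of complex IV, 1 isoform passed the count rule, which does not mean that the others were absent. Cox4i1, Cox6a1, Cox6b1, Cox7a2 and Cox8a, with mean levels of 309, 226, 150, 121 and 165 CPM, were kept, whereas Cox4i2, Cox6a2, Cox6b2, Cox7a1, Cox8b and Cox8c fell under the count rule, as did Cox7b2 and Ndufa4l2. Among the 3 genes for subunit c of the ATP synthase ring, Atp5g3 (351 CPM) lay above Atp5g1 (164) and Atp5g2 (113). Per kilobase the order was Atp5g3 (489), Atp5g2 (193) and Atp5g1 (61.4). Closest to the count rule from above were Ndufaf5, with 50 counts in 19 libraries, and Atp5s, in 21. Closest from below were Cox6b2, in 3 libraries, and Cox7a1, in 1. Ndufs5 had 0 counts in all 24 libraries, the reason was not tested, and its row was not read as a level. It shares 17.1% of its 75-base stretches with BC002163, which had 53 to 172 counts.

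Promoter windows in RefSeq (GRCm38.p6), 250 bases before to 50 after the gene start, were found for 69 of the 85 genes. The letters of 7 short motifs of factors known to act on respiratory or clock genes were searched on both strands. GCGCATGCG, bound by nuclear respiratory factor 1, was found in 11 of the 69 genes (15.9%) and in 1.95% of all 27025 genes with a window. CCGGAAG, the ETS core read by GA-binding protein, was found in 17 (24.6% against 9.93%), AAGATGGCG of YY1 in 7 (10.1% against 1.64%), the cyclic AMP response element TGACGTCA in 5 (7.25% against 2.03%) and TCAAGGTCA of the estrogen-related receptors in 2 (2.9% against 0.466%). The E-box CACGTG, to which clock proteins bind, was in 5 (7.25% against 8.09%), and CAAAGTCCA, the core preferred by HNF4α, was in 0 of 69 genes and 0.555% of all. A match is a description of letters and not a site of binding. For each complex and for cytochrome c, the gene with the most matches lying wholly in the 250 bases before the start (ties by the smallest p in the WT time comparison below) has that stretch printed on the gene's strand, 5′ to 3′, with the matched letters in capitals, to show how these letters are arranged in genes whose levels are followed below.
Ndufa11, complex I, chr17:56717584-56717731, plus strand: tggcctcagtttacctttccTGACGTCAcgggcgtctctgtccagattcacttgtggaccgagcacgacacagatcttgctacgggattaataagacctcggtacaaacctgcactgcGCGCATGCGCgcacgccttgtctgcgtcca
Sdhd, complex II, chr9:50603869-50603915, minus strand: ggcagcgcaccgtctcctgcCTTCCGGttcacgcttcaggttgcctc
Uqcrh, complex III, chr4:116075071-116075100, minus strand: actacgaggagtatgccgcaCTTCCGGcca
Cycs, cytochrome c, chr6:50566602-50566758, minus strand: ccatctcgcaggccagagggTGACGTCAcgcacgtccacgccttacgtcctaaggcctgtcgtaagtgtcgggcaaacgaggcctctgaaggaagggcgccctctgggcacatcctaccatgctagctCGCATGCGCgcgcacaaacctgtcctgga
Cox6a1, complex IV, chr5:115348959-115349140, minus strand: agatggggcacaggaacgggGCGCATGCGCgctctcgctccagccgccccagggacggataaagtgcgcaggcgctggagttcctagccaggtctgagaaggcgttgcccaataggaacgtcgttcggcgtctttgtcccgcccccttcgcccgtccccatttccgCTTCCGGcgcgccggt
Atp5l, complex V, chr9:44920864-44920992, minus strand: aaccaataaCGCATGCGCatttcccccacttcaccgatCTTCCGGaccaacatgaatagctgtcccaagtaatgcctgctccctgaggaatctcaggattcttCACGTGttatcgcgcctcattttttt
In Ndufa11 and Cox6a1 the nuclear respiratory factor 1 letters read on both strands and overlap by 8 of 9 bases, giving 10 capitals. They begin 60 bases before the start in Ndufa11, 162 in Cox6a1, 241 in Atp5l and 61 in Cycs, and the cyclic AMP response element of Cycs begins 169 bases before it.

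Across the groups, the summed level of the 85 genes was highest in WT livers at 20:30. The libraries there stood at 14360, 15390 and 17870 CPM, against 12240, 12300 and 11900 at 13:30 and 11230, 11780 and 11790 at 10:30. In α7HMZ the sums were 10830, 11650 and 15100 at 10:30, 10700, 12100 and 12410 at 13:30, and 12140, 14290 and 12500 at 20:30. Fasted livers held 11150, 11540 and 13970 in WT and 12020, 11440 and 10440 in α7HMZ. The WT 20:30 libraries lay above all other WT libraries, while the α7HMZ times overlapped. Fed 10:30 libraries and fasted WT lay on another flow cell than the 20:30 libraries, so only 13:30 and 20:30 compare within a flow cell here.

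**Figure D1:**
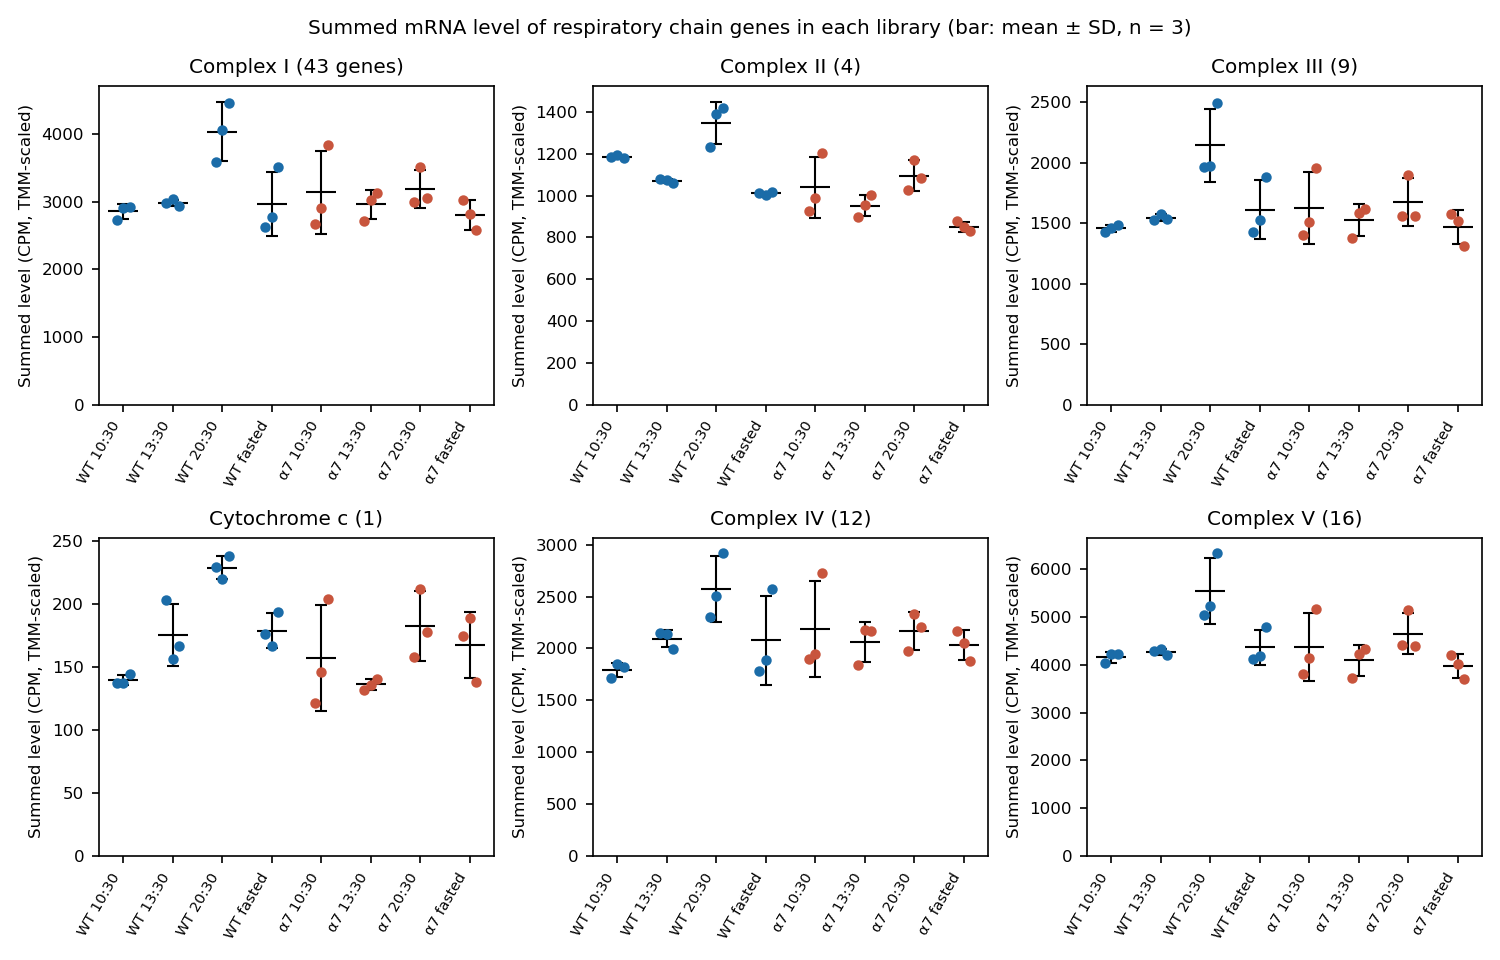
Summed level (CPM after TMM scaling, y axes from 0) of the genes of each complex and of Cycs in all 24 libraries, by group on the x axis (α7, α7HMZ; bars, mean ± SD, n = 3). Complex I averaged 4037 CPM in WT livers at 20:30 and 2986 at 13:30, against 3195 and 2963 in α7HMZ.

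The first comparison asked how the chain differed between the light-phase time 13:30 and the dark-phase time 20:30 within each genotype. In WT livers 41 of the 85 genes rose and 0 fell (edgeR quasi-likelihood test, Benjamini-Hochberg adjusted over all 13334 genes tested), where 11.6% of all genes tested rose and 9.97% fell. The median log2 fold change was 0.383, about 1.3-fold, against 0.0159 for all genes, and 82 of 85 were fitted above 0. In 65 of 85 genes every 20:30 library lay above every 13:30 library, as it did in 20.5% of all genes tested. No gene of the list had the opposite separation, which 18.7% of all genes showed.

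Complex I took the larger number of these calls. All 7 of its nuclear core subunits, which hold the flavin and iron-sulfur clusters, rose, as did 14 of 28 accessory subunits but 1 of 8 assembly factors (Ndufaf3, log2 fold change 0.62). Ndufv2, an iron-sulfur subunit of the arm that takes electrons from NADH, went from 99.6, 90.8 and 88.1 CPM at 13:30 to 133, 141 and 168 at 20:30 (log2 fold change 0.67 ± 0.153 SE, adjusted p = 0.0058 by edgeR). Ndufs8 (0.57) and Ndufv1 (0.46), also electron-carrying core subunits, and the accessory subunit Ndufb4 (0.66) rose beside it. In each of these the 20:30 and 13:30 libraries were separate.

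Complex III was the complex with the highest median change, 0.533, and 7 of its 9 genes rose. Uqcrc2, a core protein, had 246, 231 and 228 CPM at 13:30 and 373, 304 and 370 at 20:30 (log2 fold change 0.57 ± 0.13 SE, adjusted p = 0.00559 by edgeR), with 23.8% of its 75-base stretches shared with the overlapping gene Pdzd9. Uqcr10 (0.57), the Rieske protein Uqcrfs1 (0.41) and cytochrome c1 (Cyc1, 0.42, adjusted p = 0.0389) also rose. The mobile carrier Cycs stood at 203, 156 and 167 CPM at 13:30 and 229, 220 and 238 at 20:30, separate but short of the threshold (0.39, adjusted p = 0.0718 by edgeR).

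In complex II only Sdhb, the iron-sulfur subunit, rose, from 220, 218 and 222 to 298, 318 and 383 CPM (log2 fold change 0.60 ± 0.132 SE, adjusted p = 0.00469 by edgeR). Its flavoprotein partner Sdha had 474, 483 and 472 CPM at 13:30 and 498, 621 and 527 at 20:30 (0.20, adjusted p = 0.147), and the membrane anchors Sdhc and Sdhd had fitted changes of 0.33 and 0.30, with adjusted p = 0.0513 and 0.0626. All 4 genes were separate between the times, the difference being smallest for Sdha.

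Complex IV gave 4 calls among 12 genes, the lowest share of the multi-subunit complexes other than complex II, with a median of 0.288. Cox8a went from 165, 171 and 159 to 191, 208 and 261 CPM (log2 fold change 0.42, adjusted p = 0.0266), and Cox6a1 (0.46), Cox7c (0.43) and Cox5a (0.36) were the others. Complex V gave 7 calls among 16. Atp5c1, the gamma subunit that turns within the F1 head, had 245, 232 and 232 CPM at 13:30 and 334, 339 and 419 at 20:30, the smallest p of the whole list (0.63 ± 0.128 SE, adjusted p = 0.00296 by edgeR). Atp5a1 (0.37), the c-ring gene Atp5g2 (0.47) and the membrane subunit Atp5l (0.54) rose as well, the last of these with 76% and Atp5g2 with 86.9% of 75-base stretches shared with other genes. Atp5s had a fitted change of -0.11.

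In α7HMZ livers 0 of 85 genes passed the test for 20:30 against 13:30 in either direction, where 3.16% of all genes tested rose and 2.05% fell, and 9 genes had an unadjusted p under 0.05. The median was 0.14 and 69 genes were fitted above 0. In 16 genes all 20:30 libraries lay above all 13:30 libraries (13% of all genes tested), and 1 gene was separate the other way (12.3%). The core subunit Ndufs1 came nearest, with 99.5, 99.6 and 107 CPM at 13:30 and 134, 160 and 117 at 20:30 (0.42, adjusted p = 0.0545) and Cycs had 132, 136 and 141, then 158, 212 and 178 CPM (0.42, adjusted p = 0.118). Sdhb had a fitted change of 0.33 (adjusted p = 0.168). For these genes the fitted change in WT was 0.42, 0.39 and 0.60.

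The medians over all 85 genes were thus 0.383 in WT and 0.14 in α7HMZ. The difference itself did not pass: genotype by time, 20:30 against 13:30, gave 0 calls among 85 (0.112% of all genes tested in each direction) and 11 unadjusted p under 0.05, with a median of -0.28. The smallest p was that of Uqcrq, a small complex III subunit (-0.73 ± 0.238 SE, adjusted p = 0.171 by edgeR), then of Ndufs7 (-0.61, adjusted p = 0.188) and Ndufv1 (-0.43, adjusted p = 0.2). The interaction that used 10:30 as the early time, added after the data had been seen, did give calls: 12 genes had a lower difference at 20:30 (3.68% of all genes tested) and 0 a higher one (3.01%), with a median of -0.52. The 10:30 and 20:30 libraries lay on different flow cells, so a flow-cell effect that differed by genotype cannot be told apart from it. For this interaction, leaving out any of α7HMZ 10:30 replicate 3, α7HMZ 20:30 replicate 1, WT 20:30 replicate 3 or WT 10:30 replicate 1 or 2 left 0 calls, and 47 genes were called without α7HMZ 10:30 replicate 1. An F test over all 3 times called 1 gene, Ndufab1, among 85 (4.99% of all genes tested), with 46 unadjusted p under 0.05.

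**Figure D2:**
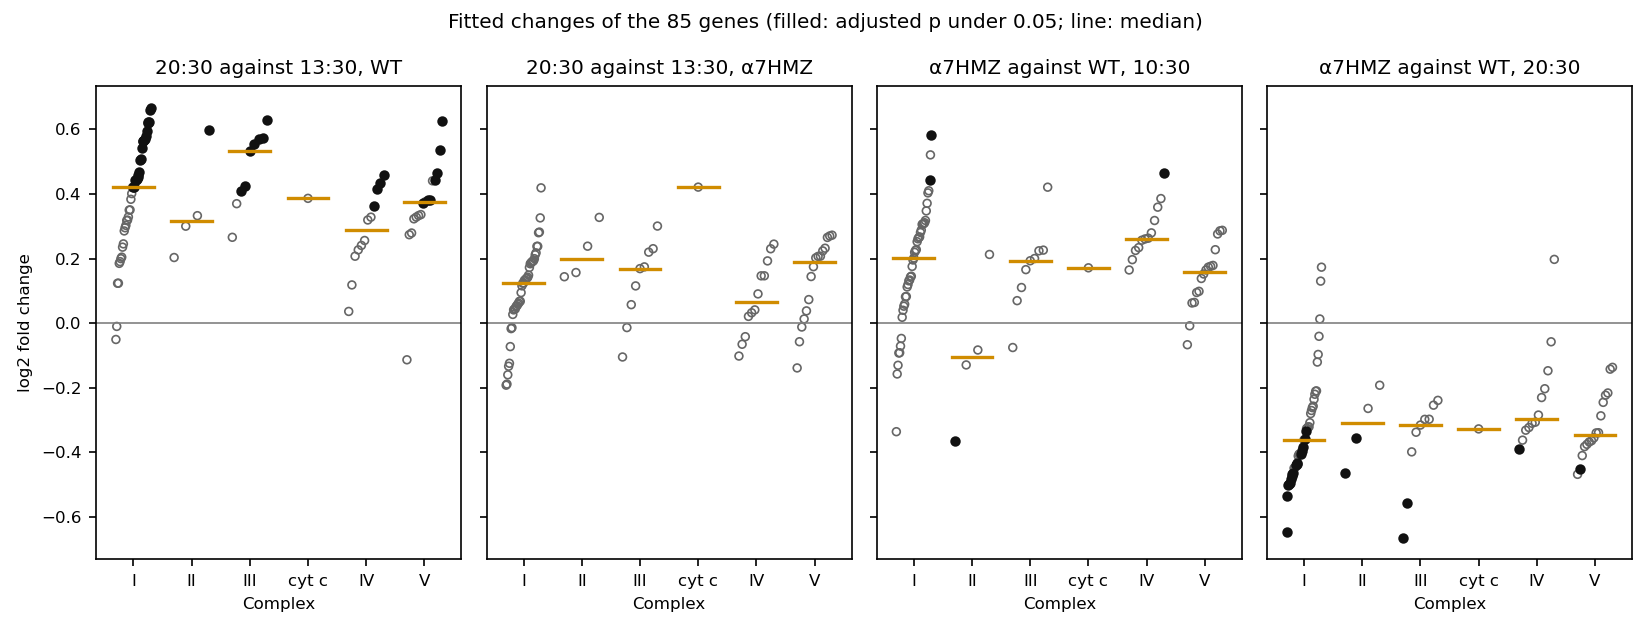
Fitted log2 fold change (y axis) of the 85 genes by complex (x axis) in 4 comparisons, filled where edgeR's adjusted p was under 0.05, with the median of each complex as a line. In WT 41 genes rose from 13:30 to 20:30, in α7HMZ 0 did, and 23 were lower in α7HMZ than in WT at 20:30.

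Comparing genotypes at each fed time gave list medians of opposite sign at 10:30 and 20:30, with the calls at 10:30 below the shares of all genes tested. At 10:30, 3 of 85 genes were higher in α7HMZ (8.36% of all genes tested) and 1 was lower (8.98%), and the median was 0.196. The 3 were the assembly factor Ndufaf2 (7.5, 8.18 and 7.51 CPM in WT, 9.16, 10.6 and 14.7 in α7HMZ), Ndufab1, the acyl carrier protein (40.9, 39.4 and 43.2 against 46.4, 52.6 and 68.5), and Cox6a1 (157, 171 and 159 against 189, 210 and 274). Their log2 fold changes were 0.58, 0.44 and 0.46, and in each gene the genotypes were separate. The gene that was lower was Sdha. Library sizes without Rn45s gave 14 higher and 0 lower, GC content with full quantile scaling 26 and 0, transcript length offsets 3 lower, and a fit of only these groups 0 and 0. For these alternatives the shares of all genes called are not given, so their counts do not set the list apart from all genes. Leaving out WT 10:30 replicate 1 or α7HMZ 10:30 replicate 3 gave 0 higher genes, leaving out WT replicate 2 or 3 gave 1, and leaving out α7HMZ 10:30 replicate 1 gave 10. Without WT replicate 2 or 3, or α7HMZ replicate 2, 0 genes were lower. Over the list, 16 genes were separate with α7HMZ higher (16.8% of all genes tested) and 1 with it lower (16.3%). Of 82 cytosolic ribosomal protein genes 33 were higher in the same comparison and 0 lower, and tested genes with transcripts under 1000 bases had a median of 0.189.

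At 13:30, 0 genes passed in either direction (6.19% of all genes tested were higher and 6.61% lower) and 4 had an unadjusted p under 0.05. The smallest p were those of Atp5sl (35.6, 41.1 and 39.6 CPM in WT, 28.2, 31.2 and 32.9 in α7HMZ, log2 fold change -0.33, adjusted p = 0.0831), Sdhd (-0.29, adjusted p = 0.1) and Cycs (-0.36, adjusted p = 0.133). The median was -0.0387.

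At 20:30, 23 of 85 genes were lower in α7HMZ (10.8% of all genes tested) and 0 were higher (8.29%), with a median of -0.331, and in 40 genes all α7HMZ libraries lay under all WT libraries (16.8%), against 1 gene the other way (16.3%). Complex I held 17 of the 23, complexes II and III 2 each, and complexes IV and V 1 each. Atp5sl, which despite its symbol encodes an assembly factor of complex I, had 40, 40.1 and 46.5 CPM in WT and 27.9, 29.7 and 23.4 in α7HMZ (log2 fold change -0.65 ± 0.123 SE, adjusted p = 0.0014 by edgeR). Uqcrq had 196, 243 and 268 against 146, 176 and 125 (-0.66, adjusted p = 0.0109), and Uqcr10 133, 156 and 191 against 101, 120 and 106 (-0.56, adjusted p = 0.0125). Among complex I accessory subunits Ndufa11 stood at 53.3, 63.2 and 74 against 43.5, 51.8 and 42.8 (-0.46, adjusted p = 0.0117) and Ndufb10 at 112, 152 and 137 against 92, 92.1 and 98.4 (-0.50, adjusted p = 0.0168). Sdhb (-0.47) and Sdhd (-0.35), Cox8a (-0.39) and Atp5g3 (-0.45) were the calls outside complexes I and III. Of the 23 genes, 16 were also among the 41 that rose in WT from 13:30 to 20:30, a comparison that shares the WT 20:30 libraries.

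Both the rise in WT and the difference at 20:30 depended on the scaling and on 1 library. With plain library sizes (without Rn45s) the median of all genes tested shifted to -0.259 in the WT time comparison and to 0.348 in the genotype comparison at 20:30, the medians of the 85 genes became 0.105 and -0.00427, and 0 genes rose in WT and 0 were lower in α7HMZ. Relative to all genes the list moved by 0.364 and -0.353 there, near the 0.367 and -0.355 of TMM scaling. Offsets for transcript length left 14 and 3 calls, with list medians of 0.163 and -0.14, and offsets for GC content with full quantile scaling left 23 and 1. Without WT 20:30 replicate 3, which had the highest summed level of any library, 12 genes rose in WT and 1 was lower in α7HMZ. The rise in WT gave 26, 27 and 18 calls without replicates 1, 2 and 3 of WT 13:30. The difference at 20:30 gave 37 and 14 without replicates 1 and 2 of WT and 7 and 6 without replicates 1 and 3 of α7HMZ. Leaving out 4 libraries together, chosen after the data had been seen, namely α7HMZ 10:30 replicate 1 (high in Rn45s) and WT 20:30 replicate 2 and α7HMZ 20:30 replicates 1 and 3 (highest in the bile duct keratin Krt19, at 18.5, 14.3 and 12.6 CPM, and in the pancreatic enzyme Ctrb1), 39 rose in WT and 0 were lower in α7HMZ at 20:30. Summed pancreatic acinar markers stood at 63.2 CPM in that WT library, but at 22.4 and 27.1 in those α7HMZ libraries beside 25.1 in replicate 2. That fit leaves α7HMZ at 20:30 with replicate 2 alone, the highest of its group in summed level, and assumes that it varies like the other groups, so the 0 says nothing about stability. Under 6 of 7 scalings 11 genes were called in the WT time comparison, among them Atp5c1, Sdhb, Uqcrc2, Ndufs1, Ndufs8, Ndufv2, Ndufb2, Ndufb4, Ndufb11 and Ndufaf3. At 20:30, Atp5sl alone was called lower under 6 of 7.

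**Figure D3:**
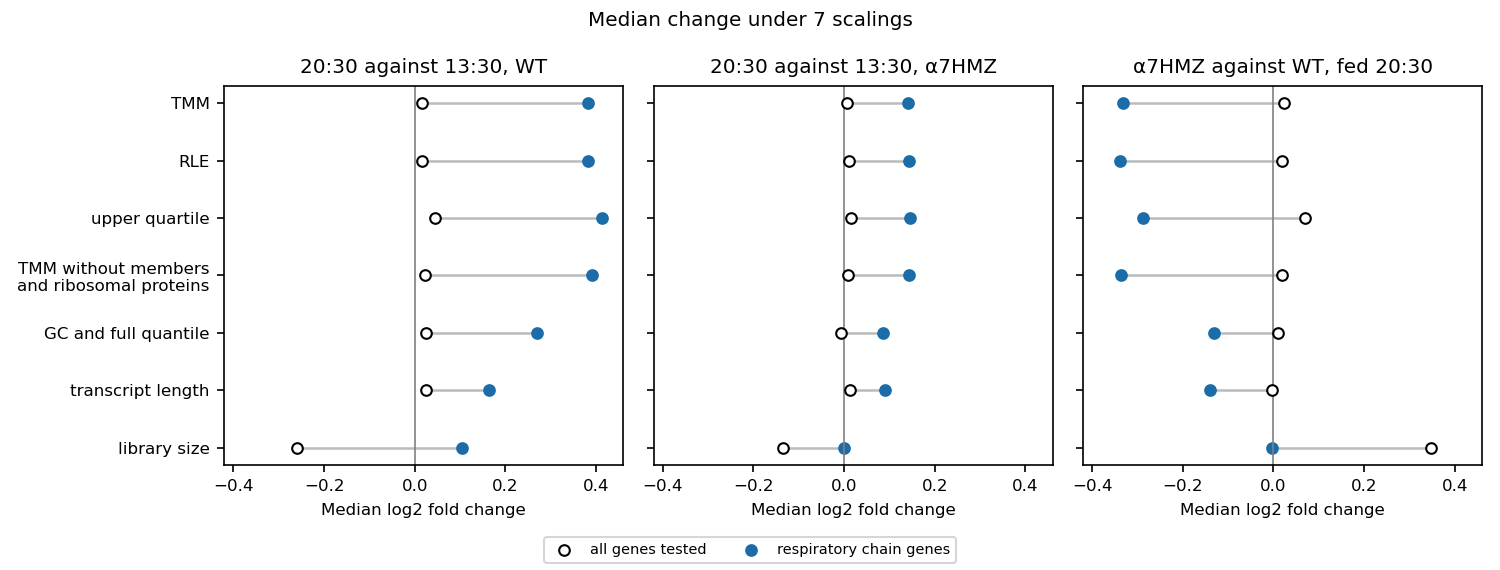
Median log2 fold change (x axes) of all genes tested (open) and of the respiratory chain genes (filled) under 7 scalings of the counts (y axis), in 3 comparisons. The list lies 0.138 to 0.368 above all genes in WT at 20:30 against 13:30, and 0.136 to 0.358 under them for α7HMZ against WT at 20:30.

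Other short transcripts moved with the list. Of the 85 genes, 46 have transcripts under 1000 bases. Tested genes of that length had a median of 0.301 in the WT time comparison, against -0.00592 for longer genes, and -0.239 against 0.0423 for the genotype difference at 20:30. In the WT time comparison 24 of 82 cytosolic ribosomal protein genes and 23 of 76 mitochondrial ribosomal protein genes rose and 0 of either fell. At 20:30, 7 and 25 of them were lower in α7HMZ, the first a share below the 10.8% of all genes tested. Summed hepatocyte markers in WT lay between 107000 and 124000 CPM at 13:30 and between 150000 and 182000 at 20:30. The part of transcript length, RNA quality or library preparation in these results was not tested beyond the offsets above.

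The lists of neighbouring mitochondrial functions, chosen with results of these data known, are read against the 11.6% of all genes tested that rose and the 9.97% that fell in the WT time comparison, and the 10.8% that were lower in α7HMZ at 20:30. From 13:30 to 20:30 in WT, 9 of 38 import and chaperone genes rose (Phb, 0.63, and Timm23, 0.46), as did 5 of 11 genes that feed electrons into the chain outside complex I, with 1 that fell (Prodh, the first enzyme of proline oxidation, 1.03, Suox, 0.73, and Etfb, 0.64, rose). Among 17 genes of the citric acid cycle 2 rose and 0 fell, a share near that of all genes. Of 23 assembly factors of complex IV, 4 rose, led by Coa6 (1.06), and 1 fell, and the complex II factor Sdhaf1 rose by 0.74. The biogenesis regulators did not move one way: 2 of 26 rose and 4 fell, and the coactivator Ppargc1b fell by 1.37, whereas Ppargc1a (-0.21, adjusted p = 0.716), Nrf1 (0.12), Gabpa (-0.08) and Tfam (0.29, adjusted p = 0.0531) did not pass. In α7HMZ against WT at 20:30, 13 of 38 import genes, 5 of 23 complex IV assembly factors and 3 of 17 citric acid cycle genes were lower. Sco2, a copper chaperone of complex IV, was lower by a log2 fold change of -1.02, Coa6 by -0.98 and the regulator Esrra by -0.52.

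Averaged over the 3 fed times, 5 of 85 genes were lower in α7HMZ (13.2% of all genes tested) and 0 were higher (13.3%), with a median of -0.0696. Library sizes without Rn45s turned this to 22 higher and 1 lower, and GC content with full quantile scaling to 12 higher and 2 lower. The shares of all genes called under these scalings are not given, so these counts do not set the list apart from all genes. Without α7HMZ 10:30 replicate 3, 25 were lower, and without WT 20:30 replicate 1, 11 were. Of the 5, 3 were subunits of complex II, and the others were Atp5sl and Ndufa11 (-0.23, adjusted p = 0.0187). Sdha (chr13:74322254-74350280, mm10, minus strand), the flavoprotein that oxidises succinate, had 602, 613 and 613 CPM in WT at 10:30 against 434, 469 and 517 in α7HMZ, 474, 483 and 472 against 419, 424 and 460 at 13:30, and 498, 621 and 527 against 470, 513 and 458 at 20:30. It was lower in every α7HMZ library at 10:30 and 13:30, and the genotypes overlapped at 20:30. Its average log2 fold change was -0.23 ± 0.0571 SE (adjusted p = 0.00546 by edgeR), from -0.36 at 10:30 (adjusted p = 0.0165) to -0.13 at 13:30 and -0.19 at 20:30. Sdhd averaged -0.24 (adjusted p = 0.00875) and Sdhb -0.26 (adjusted p = 0.0145), while Sdhc was at -0.05 (adjusted p = 0.68).

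The share of complex II in the raw counts of the 85 genes, which scaling by a factor per library does not change but offsets per gene would, was 10.5%, 10.1% and 10% in WT and 8.56%, 8.51% and 7.98% in α7HMZ at 10:30. At 13:30 it was 8.82%, 8.74% and 8.92% against 8.41%, 7.89% and 8.07%. At 20:30 it was 8.57%, 9.04% and 7.96% against 8.47%, 8.21% and 8.7%. The genotypes were separate at the first 2 of these times and overlapped at 20:30. Complex I held 24.4% to 25.4% of the counts in the fed libraries except WT 20:30 replicate 2 (26.4%). Under the scalings, Sdha, Sdhb and Sdhd each stayed called in 5 of 7. The exceptions were library size without Rn45s and GC content with full quantile scaling, where the fitted change of Sdha became 0.07. Without the 4 libraries named above, which again leaves 1 α7HMZ library at 20:30, 1 gene in place of 5 was called lower, and Sdha stood at -0.15 (adjusted p = 0.0908 by edgeR).

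Atp5sl (chr7:25619414-25625551, mm10, plus strand) was the gene called in the most scalings over the fed average. Its log2 fold change there was -0.44 ± 0.0711 SE (adjusted p = 0.000121 by edgeR), and it was called lower in all 7 scalings, with fitted values from -0.445 to -0.226. Its WT and α7HMZ levels were 25.2, 30.2 and 34.1 against 22.4, 23 and 25.3 CPM at 10:30, where 1 α7HMZ library overlapped with WT. In fasted livers they were 27.7, 30.7 and 41.9 against 23.1, 17.7 and 17.4 CPM (log2 fold change -0.79, adjusted p = 0.00723 by edgeR). The fasted genotypes lay on different flow cells, from which this difference cannot be told apart.

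**Figure D4:**
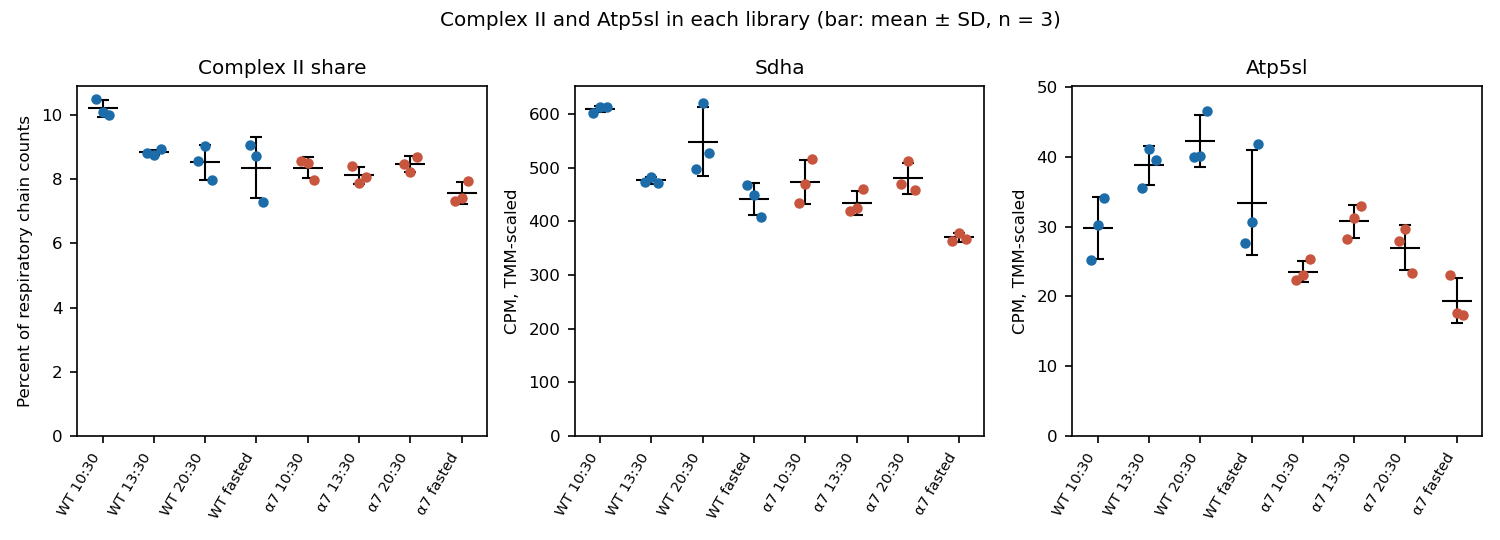
Share of complex II in the counts of the 85 genes (left, percent), and levels of Sdha (middle) and Atp5sl (right) in CPM after TMM scaling, in each library by group on the x axis (α7, α7HMZ; bars, mean ± SD, n = 3). Sdha averaged 609 CPM in fed WT at 10:30 and 370 in fasted α7HMZ, and Atp5sl is lower in α7HMZ than in WT by group mean at every time. Fasted α7HMZ lay on another flow cell than fasted WT and the fed 10:30 groups.

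Fasting for 12 h moved few of the genes. In WT 1 of 85 fell (10.6% of all genes tested) and 0 rose (12%), with a median of 0.115. The gene was Sdha, with 468, 449 and 408 CPM in fasted WT against 602, 613 and 613 in fed WT (log2 fold change -0.47 ± 0.107 SE, adjusted p = 0.00721 by edgeR), called in all 7 scalings. Without fasted WT replicate 1, 2 genes rose, and without replicate 3, 2 fell. The share of Sdha among the 85 genes went from 5.36%, 5.21% and 5.2% to 4.2%, 3.89% and 2.92%. The other complex II genes had fitted changes of -0.25 (Sdhb), 0.20 (Sdhd) and -0.05 (Sdhc), none of which passed. In the other complexes the smallest p were those of Ndufaf7 (-0.37, adjusted p = 0.0984), Ndufa10 (-0.28), Uqcrh (0.31), Uqcrfs1 (0.23), Cycs (0.35, adjusted p = 0.155), Cox4i1 (0.42, adjusted p = 0.0986), Cox8a (0.33), Atp5d (0.39, adjusted p = 0.0704) and Atp5s (0.53, adjusted p = 0.083). Slc25a20, the carnitine carrier of fatty acid oxidation, rose by 1.12 in the same comparison, and 9 of 38 import and chaperone genes rose and 1 fell. Summed Kupffer cell markers were lower in fasted than in fed WT (126 to 231 CPM against 339 to 455), as were endothelial markers (198 to 310 against 392 to 457). Erythroid markers were lower too (75.6 to 85.5 against 152 to 167), where Alas2, the only such gene tested, changed by -0.9995. Pancreatic acinar markers were also lower (10.7 to 14.7 against 44.4 to 46.8), with Cela1 at -2.041 but Cela2a at -0.3322. The part of these markers in the result was not tested.

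In α7HMZ, 3 genes were lower in fasted livers (5.9% of all genes tested) and 0 higher (6.68%), with a median of -0.161. Sdha had 363, 379 and 368 CPM fasted and 434, 469 and 517 fed (-0.36, adjusted p = 0.045). The assembly factor Ndufaf7, a methyltransferase, had 12.3, 8.85 and 10.8 against 17.1, 15.2 and 21.2 (-0.75, adjusted p = 0.00522), and Ndufaf5 3.31, 3.69 and 2.6 against 4.05, 5.77 and 7.08 (-0.82, adjusted p = 0.0293). These fasted and fed libraries lay on different flow cells, and 9 genes were lower without α7HMZ 10:30 replicate 1 but 1 without replicate 2 or 3 of that group or replicate 1 or 3 of the fasted one. Genotype by fasting, also confounded with the flow cell, gave 0 calls (0.16% of all genes tested higher and 0.0916% lower), with 2 unadjusted p under 0.05. The smallest p were those of Ndufaf4 (-0.71, adjusted p = 0.266), Ndufs3 (-0.46) and Cox5a (-0.43).

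Between fasted genotypes, also across flow cells, 2 of 85 genes were lower in α7HMZ (8.65% of all genes tested) and 0 were higher (6.9%). They were Atp5sl and Sdhd, the latter with 238, 241 and 240 CPM in WT and 190, 177 and 166 in α7HMZ (-0.43 ± 0.125 SE, adjusted p = 0.0327 by edgeR). Sdha (-0.26), Ndufs1 (-0.46, adjusted p = 0.0555), Ndufa9 (-0.32), Uqcrc2 (-0.35, adjusted p = 0.0773), Cox5a (-0.18) and Atp5h (-0.36) came next in their complexes. Replicate 3 of the fasted α7HMZ livers held 1030 CPM of Kupffer cell markers, against 207 and 231 in the other two. Without that library 1 gene was called, as without α7HMZ replicate 2 or WT replicate 1 or 2.

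Cox6b2, the testis form of a small complex IV subunit, fell outside the count rule and was higher in α7HMZ than in WT in every condition. Its counts were 0 to 4 in the 9 fed WT libraries, 7 to 48 in the 9 fed α7HMZ libraries, 22, 12 and 22 in fasted WT and 116, 169 and 84 in fasted α7HMZ. In fasted α7HMZ its level was 6.09, 6.42 and 4.85 CPM, against 1.09, 0.713 and 1.08 in fasted WT. Counts were summed over the mice and taken per effective library size. α7HMZ then held 8.47 times the WT counts at 10:30 (49 against 7 counts), 9.61 times at 13:30 and 16.6 times at 20:30. When fasted it held 6.05 times. Fasted WT held 7.01 times the counts of fed WT, and fasted α7HMZ 5.01 times those of fed α7HMZ. The fasted genotype ratio and the fasting ratio in α7HMZ cannot be told apart from the flow cell. All these ratios pool the mice and do not describe the spread between them. Cox6b1, the form of somatic tissues, stood at 119 to 223 CPM in all 24 libraries, and no annotated gene shares a 75-base stretch with Cox6b2 (chr7:4751792-4753094, mm10, minus strand). Cox6b2 was singled out after its values were seen and passes a filter on low counts through the groups where it is high, so no test is given.

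**Figure D5:**
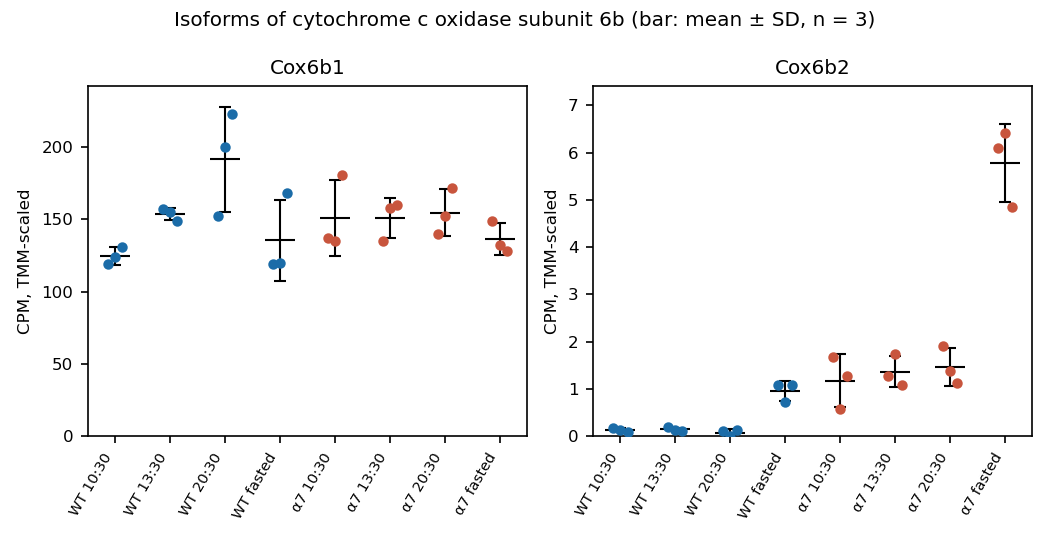
Levels (CPM after TMM scaling, y axes from 0 on different scales) of Cox6b1 and Cox6b2 in each library by group on the x axis (α7, α7HMZ; bars, mean ± SD, n = 3). Cox6b2 averaged 0.128 CPM in fed WT at 10:30, 0.961 in fasted WT, 1.17 in fed α7HMZ at 10:30 and 5.79 in fasted α7HMZ.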

How the data were processed

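Liver polyA RNA of 24 mice was sequenced as 75-base single-end reads from unstranded TruSeq libraries. Per the labels and the study's methods, the authors aligned reads to mm10 with TopHat2 2.1.1 and counted them per gene with HTSeq 0.6.1, and the raw counts were deposited. Every column matched 1 sample. Strand was not used, so overlapping genes cannot be separated.

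Genes were filtered by edgeR's filterByExpr, scaled by TMM and tested by edgeR 4.0.16 (quasi-likelihood, R 4.3.3) with Benjamini-Hochberg adjustment over all genes tested, called at adjusted p under 0.05. One fit held the 18 fed libraries and another the 4 groups taken at 10:30. SE was the log2 fold change over the square root of F. CPM used TMM factors over all 24 libraries. Lengths and shared 75-base stretches came from the GENCODE annotation of mm10. Scripts were tested on simulated data.

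The genes and lists were chosen with earlier results of these data known. Named genes were those with the smallest p in each complex and comparison, all complex II genes, Cyc1, Cycs, tissue isoforms, the highest and lowest levels, and genes nearest the count rule. One gene that this rule names is not reported here. Alternatives were 6 other scalings, DESeq2 1.42.0, 2 filters, other sets of libraries, the replicate number as a block, a test against a 1.2-fold change and leaving out each library. Replicates were separate mice, and no pair agreed within sampling noise (chi-square per degree of freedom at least 11.6).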

Additional observations from a re-analysis of the deposited data

Results flagged for a closer look

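The genotype difference itself changed between 10:30 and 20:30 for 12 genes, in a comparison added after the data had been seen (edgeR's quasi-likelihood test of genotype by time, Benjamini-Hochberg adjusted, n = 3 mice a group). In every case α7HMZ minus WT was lower at 20:30 than at 10:30 on the log2 scale. In complex I the change was -0.7506 for Ndufab1, the acyl carrier protein (adjusted p = 0.0269), -0.7826 for Ndufb10, -0.7486 for Ndufb8, -0.738 for Ndufb7 and -0.5604 for Ndufa8, all accessory subunits, and -0.6386 for the core subunit Ndufs3. In complex III it was -0.7189 for Uqcrh. In complex IV it was -0.8265 for Cox6a1 (adjusted p = 0.0293), -0.6906 for Cox4i1, -0.6452 for Cox8a and -0.6023 for Cox7a2l. In complex V it was -0.7282 for Atp5g3. In an F test of genotype over all 3 fed times, Ndufab1 alone among the 85 genes passed (adjusted p = 0.0439), where 4.99% of all genes tested did.

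Ndufab1 stood at 40.9, 39.4 and 43.2 CPM in WT and 46.4, 52.6 and 68.5 in α7HMZ at 10:30, and at 62.6, 65.4 and 70 against 49.6, 62 and 48.5 at 20:30. The groups were separate at both times, in opposite order. Of 82 cytosolic ribosomal protein genes, 33 were higher in α7HMZ at 10:30, where 8.36% of all genes tested were, and 7 were lower at 20:30, a share below the 10.8% of all genes. Their part in the result was not tested. In place of 12, the interaction gave 0 calls with library sizes without Rn45s, 1 with transcript length offsets, 2 with GC content and full quantile scaling, 7 with upper quartile factors and 0 with only the groups compared, and Ndufab1 alone was called in 6 of 7 scalings. Leaving out 1 library at a time gave 0 to 47 of these calls: 0 without WT 10:30 replicate 1 or 2, WT 20:30 replicate 3, α7HMZ 10:30 replicate 3 or α7HMZ 20:30 replicate 1, 1 without α7HMZ 20:30 replicate 3, 2 without WT 10:30 replicate 3, 22 without WT 20:30 replicate 1 and 47 without α7HMZ 10:30 replicate 1.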

How the results depend on the processing

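Numbers of respiratory chain genes called depended on scaling and on single libraries. The shares of all genes called in these alternatives are not given, so the counts below do not compare the list with all genes. With library sizes without Rn45s, 22 genes were higher and 1 lower in α7HMZ over the fed average, 14 and 0 at 10:30, 1 higher at 13:30, 3 and 0 at 20:30, and 2 and 1 when fasted; 1 was lower with fasting in α7HMZ, 0 rose with time in WT and 0 passed genotype by time against 10:30. With offsets for GC content plus full quantile scaling the average gave 12 higher and 2 lower, 10:30 26 and 0, 13:30 3 higher, 20:30 3 and 1, fasted 2 and 1, fasting in WT 2 and 4, time 23 in WT and 1 in α7HMZ, and genotype by time against 10:30 2, and the fed average of Sdha reversed to 0.0686. With transcript length offsets the values were 3 and 8 (average), 3 lower (10:30), 1 lower (13:30), 1 and 3 (20:30), 7 lower (fasting in WT), 14 and 1 (time in WT and α7HMZ) and 1 (genotype by time against 10:30). Upper quartile factors gave 1 higher (average), 12 lower (20:30) and 7 (genotype by time against 10:30). DESeq2 gave 5 higher at 10:30, 5 lower fasted, 1 higher with fasting in WT and 5 lower in α7HMZ, 1 with time in α7HMZ and 26 for genotype by time against 10:30. One fit of all 24 libraries gave 15 lower at 20:30, 5 lower fasted, 1 higher with fasting in WT, 7 lower in α7HMZ and 5 for genotype by time. Only the groups compared gave 0 and 0 at 10:30, 2 lower at 13:30, 5 lower at 20:30, 1 and 2 with fasting in WT, 1 lower in α7HMZ and 0 for genotype by time. Against a 1.2-fold change 1 was lower on average, 0 and 0 passed at 10:30, 2 at 20:30, 1 fasted, 0 and 1 with fasting in WT and α7HMZ, 8 with time in WT and 0 for genotype by time. Filtering at 50 counts in 12 libraries gave 1 higher (average), 6 higher (10:30) and 1 (time in α7HMZ), and no filter gave 7 for genotype by time. Leaving out the 4 libraries named for Rn45s, Krt19 and Ctrb1, the values were 2 and 1 (average), 10 higher (10:30), 0 lower (20:30), 4 lower (fasted), 9 lower (fasting in α7HMZ), 3 (time in α7HMZ) and 0 (genotype by time); α7HMZ at 20:30 then holds 1 library, assumed to vary like the other groups, so the 20:30 value says nothing about stability. The cause was not tested.

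Leaving out 1 library at a time, 12 (without WT 20:30 replicate 3) to 47 genes rose with time in WT and 0 to 1 in α7HMZ. Lower at 20:30 were 1 to 37, both ends set by a WT 20:30 library. Over the average 0 to 1 were higher and 5 to 25 lower (25 without α7HMZ 10:30 replicate 3), at 10:30 0 to 10 higher and 0 to 2 lower, and fasted 1 to 2 lower. With fasting 0 to 2 were higher and 1 to 2 lower in WT and 1 to 9 lower in α7HMZ, and 0 to 47 passed genotype by time against 10:30.

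Replicate numbers gave no pairing of the mice (median correlation of same-numbered deviations -0.0085 over 84 pairs). With the replicate block 8 genes were lower over the fed average, and no other count moved by over 1.5 times. For single named genes, 847 values kept their direction and call and 421 lost the call outside the left-out libraries. Depth limits the low genes first: in the library with 8545959 counts, WT 20:30 replicate 2, Cox6b2 had 0 counts.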
